A study of Mus musculus with 3 samples.

Results

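The cells described are blood and endothelial progenitors of the gastrulating mouse embryo, picked by their transcripts and not by a sort or a stain. A cell was counted, and is called a progenitor below, when it held at least 1 UMI (unique molecular identifier, 1 captured transcript molecule) of Etv2 or Tal1 and was positive for 3 or more of 10 genes: Etv2, Kdr, Tal1, Lmo2, Fli1, Esam, Cdh5, Rasgrp3, Tie1 and Gata1. The rule found 554 progenitors among 21573 cells that had 1000 or more detected genes and at most 10% of UMIs from mitochondrial genes. Of these, 224 came from the E7.0 library, 188 from E7.25 and 142 from the E7.5 posterior library. The study profiled normal, untreated embryos of the ARC mouse strain by droplet single-cell RNA-seq on the Chromium platform, from embryos at E7.0 and E7.25, and at E7.5 from their posterior part. Where 3 values are given in a row below, they follow that order: E7.0, E7.25, E7.5 posterior. Each stage is 1 library, and neither the number of embryos behind it nor which of 2 kit versions was used is given in the sources used here. No difference between stages can be set against replicate error, so no test was run, and stage, library and, for E7.5, dissected region cannot be told apart. All intervals given are 95% intervals that cover counting error only.

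Blood and the first vessels form together in mesoderm that leaves the posterior primitive streak for the yolk sac. Cells there express the VEGF receptor Kdr and a short pulse of the ETS factor Etv2, which switches on the basic helix-loop-helix factor Tal1 and its partner Lmo2. Tal1, Lmo2, Gata2 and the ETS factor Fli1 then hold the programme in place. Gata1 and Runx1 mark the blood branch, and VE-cadherin (Cdh5), Tie1 and Esam mark the endothelial branch.

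The start sites of Etv2, Tal1 and Gata1 are shown because Etv2 and Tal1 decide membership and Gata1 is the rule gene of the blood branch. Among progenitors with Tal1 at E7.25 and E7.5 posterior, Gata1 was highest where no Etv2 was seen, which the rule favours. Each run is 300 bases, from 250 before to 50 after the start, 5′ to 3′ on the gene's own strand, from RefSeq on GRCm38.p6. Etv2 is at chr7:30635803-30636102 on the minus strand, Tal1 at chr4:115056176-115056475 on the plus strand (the first of 2 listed starts) and Gata1 at chrX:7967861-7968160 on the minus strand. Capitals mark matches, on either strand, to the ETS letters AGGAAG or the GATA letters AGATAA.
Etv2: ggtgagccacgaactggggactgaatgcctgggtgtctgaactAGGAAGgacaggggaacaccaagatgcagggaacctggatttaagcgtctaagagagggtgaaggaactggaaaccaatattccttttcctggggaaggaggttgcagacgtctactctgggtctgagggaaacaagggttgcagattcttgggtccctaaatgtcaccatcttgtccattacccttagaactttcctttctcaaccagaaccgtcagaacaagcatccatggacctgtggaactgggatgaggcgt
Tal1: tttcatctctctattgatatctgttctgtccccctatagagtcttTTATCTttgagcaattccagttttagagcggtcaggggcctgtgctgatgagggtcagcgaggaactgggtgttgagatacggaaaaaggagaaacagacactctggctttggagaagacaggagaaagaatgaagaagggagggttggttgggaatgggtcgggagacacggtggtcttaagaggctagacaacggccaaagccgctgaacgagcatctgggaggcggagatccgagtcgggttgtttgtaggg
Gata1: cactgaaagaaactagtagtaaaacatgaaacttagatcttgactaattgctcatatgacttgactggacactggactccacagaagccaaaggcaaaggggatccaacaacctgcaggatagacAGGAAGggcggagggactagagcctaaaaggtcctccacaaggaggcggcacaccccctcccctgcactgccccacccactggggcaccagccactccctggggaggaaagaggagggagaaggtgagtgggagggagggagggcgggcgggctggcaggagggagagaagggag
The Etv2 and Gata1 windows each held 1 ETS match, beginning 207 and 125 bases before the start, and the Tal1 window held 1 GATA match on the opposite strand, 205 bases before the start. None of the 3 held the E-box letters CAGCTG. Over all 32851 windows of this length in the table, 35.4% held AGGAAG, 11.2% AGATAA and 16.3% CAGCTG. A match describes letters, not binding.

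Progenitors were deeper than the other cells of their library. Their medians were 17438, 10085.5 and 11872 UMIs, against 11170, 8251 and 9227.5 in the others. Cells with more than 2 times the median UMIs of their library made up 74, 46 and 27 of the progenitors (33.0%, 24.5% and 19.01%), against 11.1%, 4.70% and 7.55% of all kept cells. At E7.25, 19 progenitors also passed a visceral endoderm gate (2 or more UMIs of at least 4 of 8 markers), as did 4 at E7.0 and 1 at E7.5 posterior. Those 19 cells had a median of 38075 UMIs. A doublet caller marked 10 and 11 progenitors at E7.0 and E7.25, which is 4.46% and 5.85% of them against 1.40% and 3.72% of all kept cells. At E7.5 posterior its automatic limit marked 0 cells, and the 570 highest scores were taken in its place (6.76% of kept cells), among them 16 progenitors (11.3%). Marked and deep cells were thus commoner among progenitors in every library, and their part in the results was tested only by leaving them out. Between 14 and 35 barcodes were shared by any pair of libraries, and no shared barcode was a progenitor in both.

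Progenitors made up 2.82% (2.47 to 3.21), 3.62% (3.13 to 4.16) and 1.68% (1.42 to 1.98) of the kept cells. A rule that counts detected genes depends on depth, so each cell was also thinned at random to 5000 UMIs, which left out 614, 509 and 774 shallower cells. The thinned shares were 0.628% (0.460 to 0.837), 1.66% (1.32 to 2.07) and 0.718% (0.541 to 0.933). The share was highest at E7.25 on both scales, though its interval met that of E7.0 over all UMIs, and with 2 rule genes in place of 3 E7.0 was highest, at 8.40% against 7.39% at E7.25. E7.0 exceeded E7.5 posterior over all UMIs, while the thinned intervals of those libraries overlapped. The threshold lies in a dense range: 178, 92 and 82 progenitors had exactly 3 rule genes, and 443, 196 and 219 cells just outside had Etv2 or Tal1 and 2 rule genes in all.

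**Figure D1:**
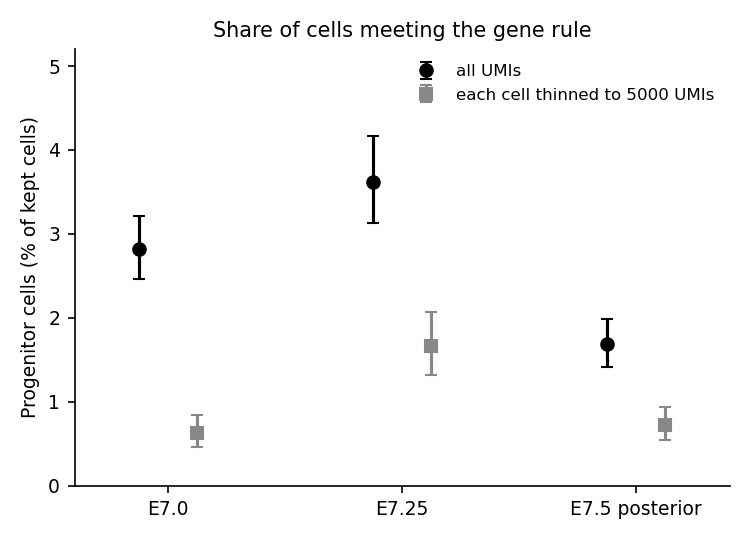
Share of progenitors among the kept cells of each library, over all UMIs (circles) and after thinning each cell to 5000 UMIs (squares), with exact binomial 95% intervals. The E7.25 library is highest on both scales under the 3-gene rule, at 3.62% and 1.66%.

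The rule's genes are described by role, with no test, since they chose the cells. Levels in CPM (counts per 1000000 UMIs) are UMIs summed over the progenitors of a library. Etv2, the factor that starts the lineage, was present in 97.8%, 79.8% and 92.3% of progenitors. Its level was 248 CPM (234 to 263), 256 (238 to 275) and 276 (253 to 300), with intervals that overlapped, and single progenitors reached 61, 30 and 25 Etv2 UMIs. Kdr, the VEGF receptor, was present in 89.3%, 85.1% and 88.0%, at 126, 151 and 176 CPM.

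The factors that follow Etv2 were spread unevenly. Tal1 was found in 25.4% (19.9 to 31.7), 70.7% (63.7 to 77.1) and 49.3% (40.8 to 57.8) of progenitors, at 33.5, 106 and 87.1 CPM. Its partner Lmo2 was found in 29.0%, 56.9% and 52.1%, at 38.2, 83.2 and 91.7 CPM. Fli1, an ETS factor of endothelium and blood, was found in 7.14%, 28.7% and 17.6%, at 4.67, 31.9 and 23.4 CPM. For all 3 genes the E7.0 share was lowest. These shares depend on the rule genes through which cells were counted. At E7.0, 125 of 224 progenitors met the rule through Etv2, Kdr and Rasgrp3 alone, so the order is a description.

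Rasgrp3, a guanine nucleotide exchange factor that acts downstream of VEGF, had the opposite order, in 72.3%, 28.2% and 51.4% of progenitors. At E7.5 posterior 14.1% of other cells also had a Rasgrp3 UMI. Endothelial junction genes were rare throughout. Esam was found in 12, 20 and 6 progenitors, Cdh5 in 4, 12 and 12, and Tie1 in 1, 4 and 2. Gata1, the master factor of red cells, was found in 9, 32 and 12 progenitors. At E7.0 its share of 4.02% (1.85 to 7.49) lay below the 4.80% of visceral endoderm cells and above the 1.49% of all other cells, so no expression is read from it. Against visceral endoderm cells the later libraries had 17.0% against 1.65% and 8.45% against 1.18%.

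Background from free RNA was not measured directly, and visceral endoderm cells, which should lack the genes that anchor the rule, served as a guide. Etv2 was found in 3.35%, 3.51% and 1.76% of them, and Tal1 in 0.112%, 0.516% and 0.784%. Rasgrp3, which does not anchor the rule, was found in 4.69%, 4.75% and 6.47% of visceral endoderm cells. The median depth of those cells was 11677, 8043 and 8789 UMIs. Other cells as a whole had Etv2 in 14.4%, 10.4% and 8.65% and Tal1 in 0.700%, 0.839% and 0.458%. Of all cells with Tal1, 54 of 111, 42 of 175 and 38 of 108 lay outside the rule.

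**Figure D2:**
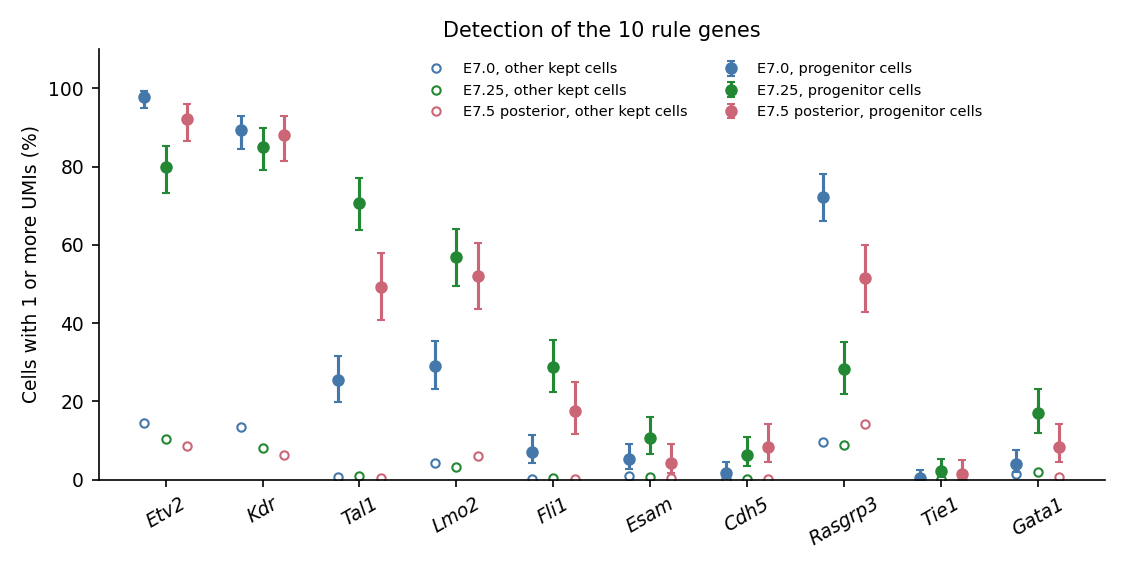
Percent of cells with 1 or more UMIs of each of the 10 rule genes, in progenitors (filled, with exact binomial 95% intervals) and in other kept cells (open), by library. Tal1, Lmo2 and Fli1 are lowest in the E7.0 progenitors and Rasgrp3 is highest there.

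The label held unevenly against its 5 marker genes. At E7.0, 125 of 224 progenitors (55.8%) met the rule through Etv2, Kdr and Rasgrp3 with no other rule gene, against 30 of 188 (16.0%) and 44 of 142 (31.0%) in the later libraries. Progenitors with Etv2 but no Tal1 numbered 167, 55 and 72, those with both 52, 95 and 59, and those with Tal1 but no Etv2 5, 38 and 11. At least 1 of Tal1, Fli1, Cdh5 and Tie1 was seen in 64, 138 and 74 progenitors. Most E7.0 progenitors thus had Etv2 and Kdr with none of the other markers detected, and the name stands there for the rule and not for a full marker set.

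Progenitors with a Tal1 UMI (57, 133 and 70) were compared with those without (167, 55 and 72) inside each library, a split chosen after the data were seen. A progenitor without Tal1 has to hold Etv2 and at least 2 other rule genes, so the sides were also chosen differently. The part of this choice in the differences below was not tested. Those with Tal1 had median depths of 14846, 9188 and 10981.5 UMIs and those without 18574, 13293 and 12621.5. Among 4196, 4333 and 4429 genes at 30 CPM or more on either side, 1.76%, 1.38% and 2.26% were at least 2-fold higher with Tal1, and 1.50%, 0.739% and 2.05% at least 2-fold lower. A gene that passes the level filter through its higher side alone is bound to differ, so counts over the measured genes of a list are descriptions.

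Several transcription factors of blood and endothelium were higher where Tal1 was present. Gata2, which maintains blood progenitors, stood at 52.2, 69.8 and 72.3 CPM with Tal1 and at 3.77, 15.1 and 11.7 without (log2 ratios 3.79, 2.21 and 2.62). Runx1, a factor of blood formation that is already expressed in the yolk sac, stood at 29.1, 68.2 and 61.7 against 5.65, 13.1 and 4.89 CPM. Hhex, a homeobox factor of early endothelium and blood, stood at 49.2, 42.0 and 48.9 against 4.84, 6.04 and 3.91 CPM. For these 3 genes and the corepressor Cbfa2t3 the Poisson intervals of cells with and without Tal1 did not meet in any library.

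Cbfa2t3, which works in the Tal1 complex, stood at 19.1, 32.7 and 34.0 against 1.34, 4.03 and 2.93 CPM. Of 22 listed blood and endothelial factors outside the rule, 5, 6 and 8 passed the level filter, and 2, 4 and 6 of those were at least 2-fold higher with Tal1, none lower. The median log2 ratios of the measured factors were 0.24, 2.29 and 2.06, so at E7.0 most of them differed by less than 2-fold. Zfpm1, the cofactor of GATA factors, stood at 37.2, 81.8 and 65.9 CPM with Tal1 and at 48.1, 49.4 and 31.3 without.

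Endothelial genes outside the rule were higher in the same cells. Egfl7, a matrix protein secreted by endothelium, stood at 130, 193 and 155 CPM with Tal1 and at 61.1, 67.5 and 48.9 without. Ramp2, the adrenomedullin coreceptor of vessels, stood at 56.3, 122 and 89.3 against 11.03, 30.2 and 15.6 CPM. Flt1, the decoy VEGF receptor, stood at 46.2, 64.9 and 60.6 against 15.1, 14.1 and 11.7 CPM. Of 26 listed surface and junction genes, 6 were measured in each library, and 6, 3 and 4 were at least 2-fold higher with Tal1. Their median log2 ratios were 1.62, 1.21 and 1.64, where the median of all measured genes was 0.03, 0.02 and 0.02.

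Genes at 50 CPM or more with Tal1 in every library, rule genes left out, were ranked by their weakest ratio over the libraries. That ranking, added after the data were seen, put Mest, Crip2, Ramp2, Gadd45g, Gata2, Bmp2, Cd59a, Phlda1, Egfl7 and Polg highest with Tal1. Gadd45g, a growth arrest and stress gene, stood at 118, 135 and 166 CPM with Tal1 and 7.26, 27.2 and 17.6 without, giving log2 ratios of 4.02, 2.31 and 3.24. Bmp2, a BMP ligand, stood at 77.4, 63.3 and 84.0 against 14.3, 16.1 and 21.5 CPM. Cd59a, an inhibitor of complement, stood at 60.3, 64.4 and 69.1 against 15.9, 15.1 and 5.87 CPM. The ranking picked these 3 genes for a high ratio in every library, so their lead in each library is no result. Crip2, a LIM-domain protein of heart and vessels, stood at 140, 304 and 180 against 25.01, 103 and 31.3 CPM.

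Genes of the streak and of nascent mesoderm were lower where Tal1 was present. Mesp1, the early mesoderm factor, stood at 276, 250 and 147 CPM with Tal1 and at 1353, 564 and 838 without, giving log2 ratios of -2.29, -1.17 and -2.51. Lhx1, a LIM homeobox factor of the streak, stood at 166, 42.0 and 26.6 against 583, 71.5 and 148 CPM. The NODAL antagonist Lefty2 stood at 42.2, 37.6 and 7.44 against 264, 50.4 and 216 CPM, and at E7.25 its log2 ratio interval included 0 (-0.97 to 0.13). The Lefty2 difference was thus clear of counting error at E7.0 and E7.5 posterior only. Lef1, a nuclear effector of WNT, stood at 46.2, 39.3 and 48.9 against 140, 93.7 and 187 CPM. Of 16 listed streak and nascent mesoderm genes, 14, 11 and 13 were measured, and 8, 3 and 10 were at least 2-fold lower, with medians of -1.36, -0.65 and -1.35 and 1 higher at E7.0. The lowest by rank included Tdgf1, Meis2, Cachd1, Lef1, Mesp1, Agtrap, Fst, Crabp1 and Greb1.

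Cell cycle and haem genes did not separate the same cells. All 15 S phase genes, all 15 G2 and M phase genes and every measured haem and iron gene (8, 7 and 7 of 15 listed) were within 2-fold in each library. Extraembryonic mesoderm genes had medians of 0.08, -0.13 and -0.24. Hand1, a factor of extraembryonic and lateral mesoderm, differed by log2 -0.33, -0.68 and -0.44.

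**Figure D3:**
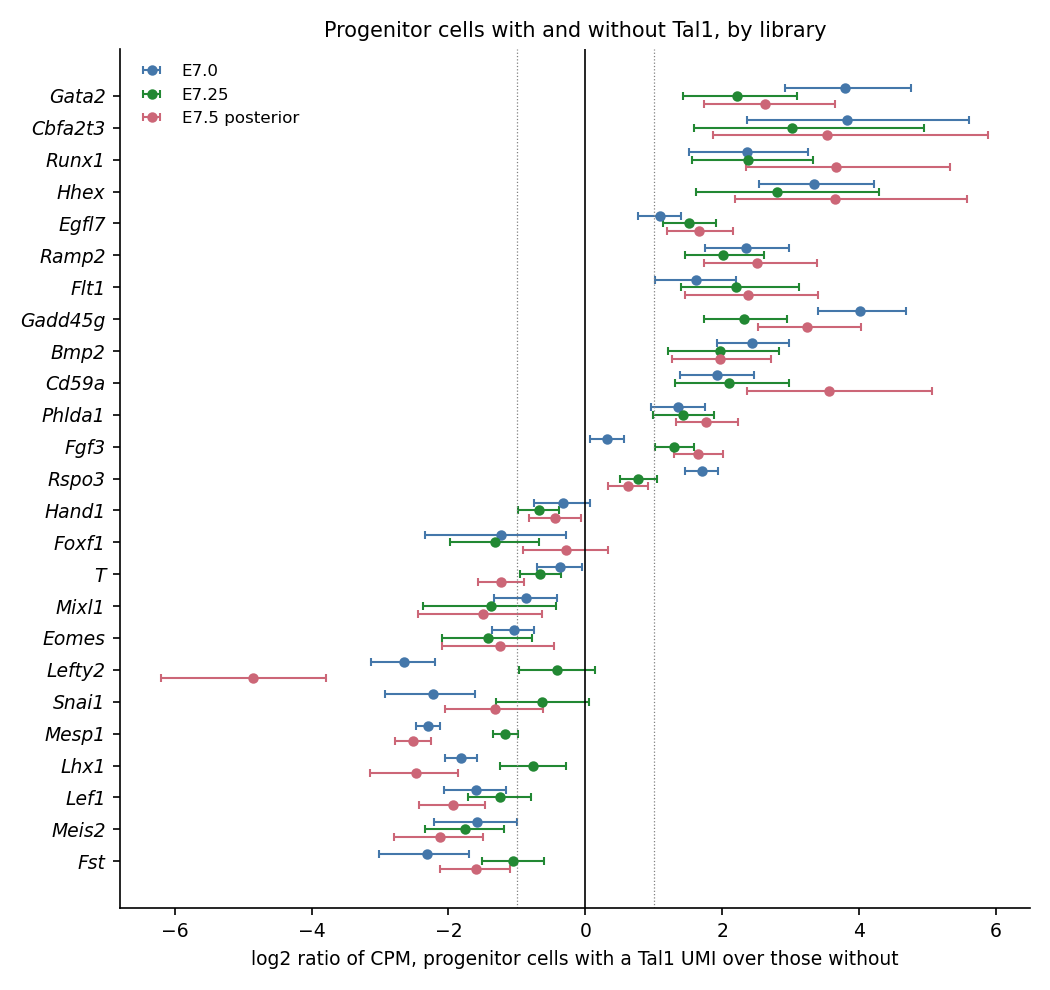
Log2 ratio of CPM between progenitors with a Tal1 UMI and progenitors without, for 25 genes in each library, with conditional binomial 95% intervals. Dotted lines mark 2-fold, and Gata2, Runx1 and Hhex lie right of it and Mesp1 left of it in all 3 libraries.

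Among progenitors with Tal1, several genes ran in order with the amount of Etv2 at E7.25 and E7.5 posterior. Cells with 0, with 1 to 4 and with 5 or more Etv2 UMIs numbered 38, 51 and 44 at E7.25 and 11, 27 and 32 at E7.5 posterior. At E7.0 the lower ranges held 5 and 12 cells, and those values are left out here. Median depths over the ranges were 8977, 8791 and 10198.5 UMIs at E7.25 and 11463, 10633 and 10940.5 at E7.5 posterior.

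Runx1, Gata2 and Cited4, picked after their values were seen, were highest where no Etv2 was seen. A cell without Etv2 has to hold Tal1 and at least 2 other rule genes, so these cells were also chosen differently. From the lowest Etv2 range to the highest, Runx1 stood at 161 CPM (124 to 205), 76.4 (57.6 to 99.5) and 8.39 (3.08 to 18.3) in the E7.25 library, and at 221 (151 to 312), 53.3 (32.6 to 82.4) and 14.3 (5.23 to 31.0) at E7.5 posterior. Gata2 stood at 146 CPM (111 to 188), 61.1 and 36.4 (23.8 to 53.3) at E7.25. At E7.5 posterior it stood at 117 (68.3 to 188), 80.0 and 49.9 (30.9 to 76.3), where the lowest and highest ranges overlapped. Cited4, a transcriptional coactivator, stood at 47.7, 8.34 and 4.20 CPM and at 117, 13.3 and 2.38 CPM. All 3 genes had the same order of ranges in both libraries.

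Gata1 stood at 70.3, 11.1 and 0 CPM at E7.25 and at 75.9, 13.3 and 0 CPM at E7.5 posterior, where the Poisson intervals of 0 UMIs reach 5.16 and 8.77 CPM. Gata1 is itself a rule gene, which the rule favours in cells without Etv2.

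The FGF ligand Fgf3 and the small GTPase Rnd2 had the same order, over the same ranges of differently chosen cells. Fgf3 stood at 562, 292 and 173 CPM at E7.25 and at 621, 272 and 162 CPM at E7.5 posterior. Rnd2 stood at 196, 88.9 and 32.2 CPM and at 145, 64.0 and 28.5 CPM. For both genes the intervals of the lowest and highest Etv2 range did not meet in either library.

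Endothelial genes varied in how they ran across the Etv2 ranges. Ramp2 stood at 158 CPM (122 to 202), 142 and 81.1 (61.6 to 105) at E7.25, in the order of Runx1, and at 82.8, 104 and 78.4 CPM at E7.5 posterior. The rule gene Fli1 stood at 67.8, 48.6 and 29.4 CPM at E7.25 and Cdh5 at 15.1, 6.95 and 1.40, both in the same order, with lowest and highest intervals that overlapped. Egfl7 stood at 226, 197 and 169 CPM at E7.25 and at 186, 149 and 150 CPM at E7.5 posterior, with intervals at E7.5 posterior that overlapped throughout. Flt1 stood at 60.3, 79.2 and 53.2 CPM and at 34.5, 64.0 and 66.6 CPM. Hhex stood at 45.2, 41.7 and 40.6 CPM and at 62.1, 45.3 and 47.5 CPM. Neither Flt1 nor Hhex had the order seen for Runx1 with separated intervals. Mesp1 was lower without Etv2 at E7.25, at 97.9 CPM against 293 and 292, while its 3 intervals overlapped at E7.5 posterior.

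**Figure D4:**
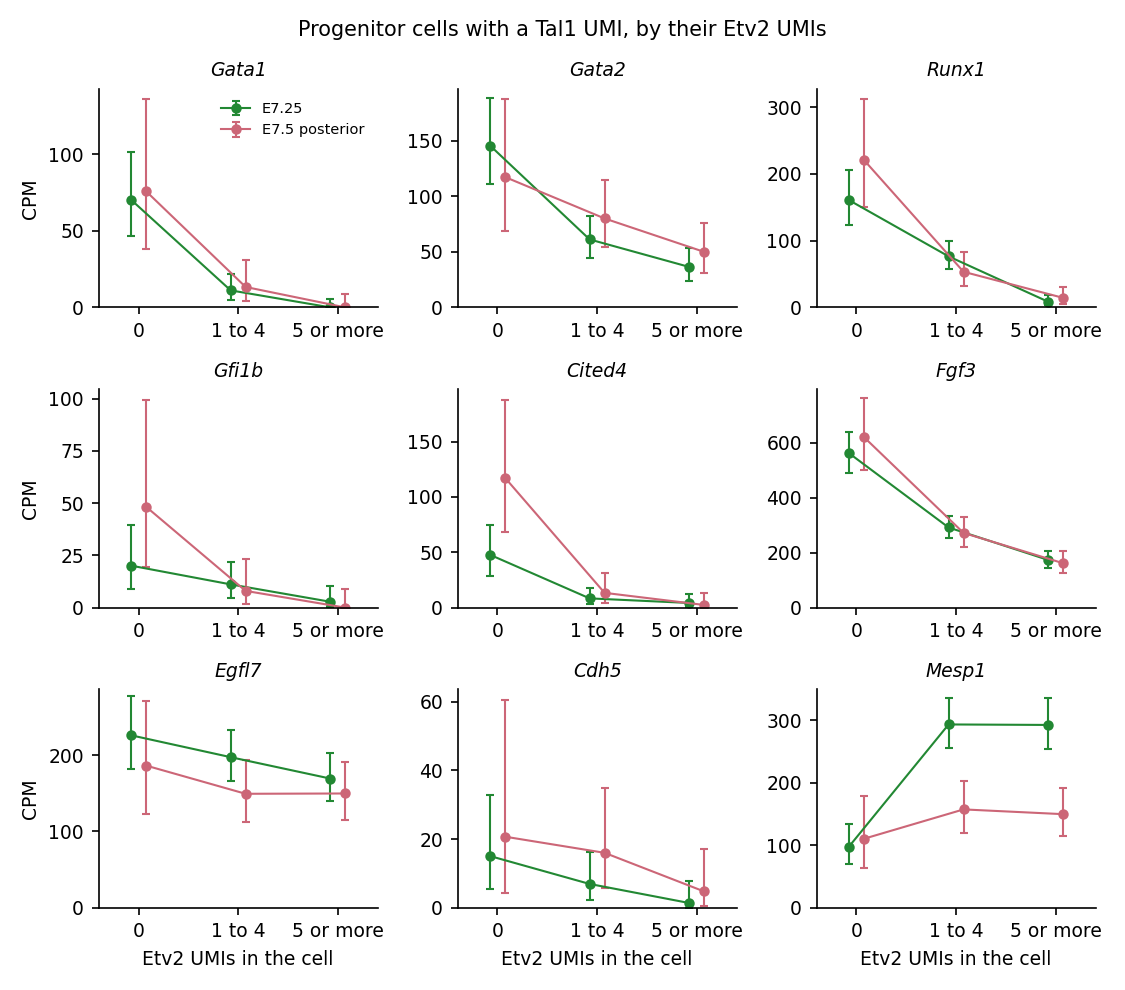
CPM of 9 genes in progenitors with a Tal1 UMI, grouped by the cell's Etv2 UMIs, for the E7.25 and E7.5 posterior libraries, with exact Poisson 95% intervals. Runx1, Cited4 and Fgf3 are highest in cells with 0 Etv2 UMIs in both libraries, and the Egfl7 intervals overlap at E7.5 posterior.

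Most progenitors at E7.0 and E7.5 posterior, and 94 of 188 at E7.25, had fewer than 2 genes of each branch. Cells with 2 or more of 12 blood genes numbered 6 (2.68%), 38 (20.2%) and 13 (9.15%), and cells with 2 or more of 12 endothelial genes 17 (7.59%), 72 (38.3%) and 29 (20.4%). Both conditions were met by 2, 16 and 8 progenitors, and neither by 203, 94 and 108. In other cells the blood condition alone was met by 0.998%, 1.84% and 0.374%, and the endothelial one alone by 1.90%, 1.30% and 1.51%. Gata1 of the blood list and Cdh5, Tie1 and Esam of the endothelial list are also rule genes, which raises the share in progenitors. On progenitors thinned to 5000 UMIs the endothelial condition was met by 7 of 223, 32 of 186 and 13 of 138.

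Globin genes were almost absent. The embryonic beta-like globin Hbb-bh1 had 13, 15 and 2 UMIs in all progenitors together, the embryonic alpha-like globin Hba-x 0, 1 and 0, and the erythroid factor Klf1 1, 3 and 4. Hbb-y, Hemgn, Slc4a1 and the platelet gene Pf4 had no UMI in the progenitors of any library. The adult globins Hbb-bs and Hba-a1 had 12 and 7 UMIs at E7.25 and none in the progenitors of E7.0 and E7.5 posterior.

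Early blood and endothelial genes were low as well. Gfi1b, an erythroid and megakaryocyte factor, stood at 0.424, 6.72 and 5.60 CPM against 0.0675, 0.178 and 0.140 in other cells. The integrin Itga2b stood at 0.424, 2.12 and 4.08 CPM against 0.0579, 0.268 and 0.105. The adhesion molecule Pecam1 stood at 0.424, 6.72 and 1.02 CPM and the angiopoietin receptor Tek at 0.636, 7.79 and 4.58. At E7.0 the progenitors held only 2 UMIs of Gfi1b in all, so no level can be read there, and Emcn, a sialomucin of mature endothelium, had no UMI in any library.

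Against the other cells of the same library, some mesodermal and vascular genes were higher in progenitors, and the lists that led differed between libraries. Of 4062, 4337 and 4301 genes measured, rule genes left out, 1.03%, 0.853% and 1.63% were at least 2-fold higher in progenitors and 2.34%, 2.33% and 1.79% at least 2-fold lower. The rule drew on the same cells, so these ratios are a description. The genes ranked highest in all 3 libraries were Rspo3, Ppic, Fgf3, Igfbp4, Mest, Myl7, Vim, S100a10, Ccnd2, Fn1, Rbms1, Pmp22, Grrp1, H2afy and Zeb2.

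Signalling ligands and receptors were among them or near them. Rspo3, a WNT agonist needed for vessel growth, stood at 123, 218 and 204 CPM against 45.0, 57.5 and 80.1 in other cells. Fgf3 stood at 155, 241 and 178 against 62.5, 52.1 and 30.6 CPM. Bmp4, a ligand that induces extraembryonic mesoderm, stood at 33.3, 95.9 and 84.6 against 9.35, 49.2 and 15.6 CPM. All 3 ligands were higher in progenitors in each library, for which Rspo3 and Fgf3 had been ranked. Bmp4 was higher by less than 2-fold at E7.25. The apelin receptor Aplnr stood at 43.5, 48.8 and 62.7 against 24.1, 23.3 and 31.9 CPM. Of 20 listed VEGF, NOTCH and apelin genes, 5, 5 and 10 were measured, with 1, 4 and 3 at least 2-fold higher and 0, 0 and 2 lower. Dll4, a NOTCH ligand of arteries, had at most 1 UMI in the progenitors of a library.

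Among blood and endothelial genes outside the rule, Gata2 stood at 14.0, 50.6 and 40.8 CPM against 0.618, 5.26 and 1.45 in other cells (log2 ratios 4.50, 3.27 and 4.81). Rhoj, a small GTPase of endothelium, stood at 6.79, 16.6 and 11.2 CPM against 0.270, 0.937 and 0.861. Of the 26 surface and junction genes, 3, 6 and 6 were measured, and 1, 5 and 4 were at least 2-fold higher, with 1, 0 and 0 lower. Their medians were 0.41, 1.30 and 1.56, where all measured genes had 0.03, -0.00 and 0.05. The genes measured differed in number between the libraries, so these medians are not compared.

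Mesodermal lists led over the other cells at E7.0 and E7.5 posterior and little at E7.25, and this lead depends on the level in the other cells too. Extraembryonic mesoderm genes were at least 2-fold higher in 5 of 5, 0 of 7 and 6 of 6 measured of 15 listed. Heart and lateral mesoderm genes were so in 3, 0 and 3 of 4 measured. Streak and nascent mesoderm genes were so in 4 of 13, 1 of 9 and 3 of 13, with medians of 0.77, 0.19 and 0.56, and with 4 rule genes in place of 3 those medians were 0.13, -0.12 and -0.61. Myl7, an atrial myosin light chain, stood at 287, 249 and 213 CPM against 111, 132 and 95.001. Fibronectin (Fn1) stood at 487, 314 and 503 CPM against 213, 186 and 216. The E7.25 progenitors had the smallest lead for both genes. Summed over 8 markers, extraembryonic mesoderm stood at 175, 350 and 319 CPM in progenitors and at 51.8, 237 and 107 in other cells, highest at E7.25 in both. Summed over 6 markers, nascent mesoderm stood at 1807, 607 and 928 CPM against 1059, 570 and 709, lowest at E7.25 in both.

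Epithelial, pluripotency and visceral endoderm genes were lower in progenitors than in all other cells together, in counts summed over cells. Cells of the visceral endoderm gate made up 11.6%, 19.4% and 6.15% of the other cells and count in those sums. Of the visceral endoderm genes measured, 12 of 12, 14 of 14 and 10 of 11 were at least 2-fold lower, with medians of -3.10, -2.34 and -4.40. Epithelial genes were lower in 8 of 9, 4 of 9 and 5 of 7, and epiblast genes in 4 of 8, 7 of 9 and 6 of 7. The lowest by rank were Apob, Dab2, Ttr, Apom, Rbp4, Apoc2, Apoa1, Spink1, Mt2 and Cldn6. All 8 visceral endoderm markers were detected in the progenitors of every library, at a summed level of 168, 642 and 31.6 CPM against 1619, 3252 and 794 CPM in other cells. At E7.25 that signal sat mainly in deep cells: Ttr, a serum carrier, was at 307 CPM in progenitors over 2 times the median depth and at 35.3 CPM in the rest. Per cell, the 8 markers together differed less, with medians of 36.2, 110 and 0 CPM in progenitors and 44.0, 134 and 0 CPM in other cells.

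Cells gated as extraembryonic mesoderm (Hand1 and 2 or more others of its genes, 401, 688 and 627 cells) and as nascent mesoderm (Mesp1 and 2 or more others, 2776, 731 and 1963 cells) were set beside the progenitors as 2 neighbouring mesoderm groups. Against extraembryonic mesoderm, 0.321%, 0.693% and 0.584% of genes were at least 2-fold higher in progenitors and 0.988%, 1.43% and 0.397% lower. Against nascent mesoderm, 0.855%, 2.32% and 1.72% were higher and 0.252%, 1.62% and 0.964% lower. Visceral endoderm genes were among the higher ones, in 5 of 6, 7 of 9 and 1 of 2 measured over extraembryonic mesoderm and in 6 of 6, 9 of 9 and 2 of 2 over nascent mesoderm. Cells passing the visceral endoderm gate were left out of both neighbour groups, while 4, 19 and 1 progenitors passed it. The choice of cells thus favours this difference, and its part in it was not tested.

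Several mesoderm genes stood between these neighbours. Hand1 stood at 77.4, 132 and 127 CPM in progenitors, between 259, 490 and 398 in extraembryonic mesoderm and 8.61, 29.7 and 19.9 in nascent mesoderm. Bmp4 stood at 33.3, 95.9 and 84.6 CPM, between 95.1, 234 and 136 and 3.11, 10.1 and 4.31. Both genes belong to the extraembryonic mesoderm gate, which sets their level in that group. Pmp22, a membrane protein outside both gates, had the same order, at 59.4, 75.4 and 87.6 CPM between 92.6, 255 and 174 and 8.13, 13.6 and 10.6.

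Other genes were highest in the progenitors. Runx1 stood at 10.6, 48.8 and 32.1 CPM against 5.15, 8.34 and 4.02 in extraembryonic and 2.15, 3.26 and 2.04 in nascent mesoderm. Egfl7 stood at 75.5, 149 and 99.8 CPM against 67.6, 69.7 and 54.8 and 49.9, 47.6 and 45.4. Fgf3 stood at 155, 241 and 178 CPM against 110, 126 and 65.5 and 130, 132 and 70.4. Egfl7 exceeded extraembryonic mesoderm by little at E7.0, where its interval in progenitors was 67.9 to 83.8 CPM. Rspo3 exceeded both neighbours in every library, at 123, 218 and 204 CPM against 69.8, 95.4 and 115 and 64.5, 129 and 154.

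Between stages, the E7.25 progenitors had lower streak transcripts and higher endothelial transcripts than those of E7.0. Of 4274 genes, 3.42% were at least 2-fold higher in the E7.25 library and 2.50% lower, where the other cells gave 2.47% and 1.72% of 4370. Of the 16 streak and nascent mesoderm genes, 13 were measured and 9 were at least 2-fold lower, with a median log2 ratio of -1.63. In other cells 6 of 12 were lower, with a median of -1.001. Mixl1, a homeobox gene of the streak, was at 76.0, 14.5 and 31.1 CPM from E7.0 to E7.5 posterior, where other cells had 48.8, 20.7 and 26.2. Eomes, a T-box factor of the streak, was at 185, 30.4 and 34.6 CPM, where others had 152, 46.3 and 40.6. Both were highest at E7.0 in progenitors and in other cells.

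Of the 6 surface and junction genes measured, 3 were at least 2-fold higher at E7.25 than at E7.0, none lower, with a median of 1.05. Epithelial genes were so in 6 of 7, with a median of 1.39, where other cells gave 1 of 10 and 0.40, and the part of these genes in the difference was not tested. Ramp2 was at 20.6, 89.5 and 50.9 CPM in progenitors across the 3 libraries and at 17.3, 23.2 and 19.04 in others, so that its log2 ratio of E7.25 over E7.0 was 2.12 (1.78 to 2.47) in progenitors and 0.42 (0.31 to 0.54) in others. Egfl7 was at 75.5, 149 and 99.8 CPM, with others at 56.8, 57.9 and 53.5, giving 0.98 (0.77 to 1.18) and 0.03 (-0.04 to 0.09). The intervals of progenitors and other cells did not meet for either gene. Gata2 differed from this, with a log2 ratio of 1.85 (1.42 to 2.30) in progenitors and a larger 3.09 (2.69 to 3.51) in other cells.

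Rnd2 and Vat1 ranked among the highest at E7.25. Rnd2 was at 9.12, 64.1 and 30.6 CPM in progenitors, with others at 10.8, 16.6 and 9.75, and the log2 ratios of E7.25 over E7.0 were 2.81 for Rnd2 and 2.82 for Vat1. The gene models of Rnd2 and Vat1 overlap at their ends on opposite strands, and whether reads of one were counted to the other was not tested.

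The mix of progenitors with and without Tal1 differed between the libraries as well. Among those with Tal1, the median of the endothelial genes for E7.25 over E7.0 was 0.53 and that of the streak genes -0.43. Among those without Tal1 the same medians were 0.88 and -1.30. Each of these medians was nearer 0 than over all progenitors. The part of this mix in the difference between stages was not tested further.

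The E7.5 posterior progenitors differed from those of E7.25 in streak, epithelial, trophoblast and visceral endoderm genes. Of 4391 genes, 1.78% were at least 2-fold higher at E7.5 posterior and 2.14% lower. All 6 endothelial genes and all 5 other blood and endothelial factors measured were within 2-fold, with medians of -0.50 and -0.31. Epithelial genes were at least 2-fold lower in 4 of 7, with a median of -1.23, and trophoblast genes in 2 of 3, with a median of -2.43. Streak genes were higher in 5 of 12, with a median of 0.74, and Lefty2 was at 116 CPM against 42.1 at E7.25. Among progenitors with Tal1 the streak median was 0.016, and among those without Tal1 it was 0.896, with 4 of 13 at least 2-fold higher. The Hox gene Hoxb1 was at 22.7, 25.5 and 67.7 CPM over the 3 libraries, while other cells had 8.30, 29.9 and 73.7.

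Several of the largest differences between libraries were seen in the other cells too. Visceral endoderm genes were at least 2-fold higher at E7.25 than at E7.0 in 8 of 9 measured and lower at E7.5 posterior than at E7.25 in 8 of 9, and other cells gave 7 of 14 and 13 of 14. Between the later libraries, 1.03% of all genes were at least 2-fold higher in other cells and 3.17% lower. Hist1h2ap, a histone gene, was at 694, 55.6 and 176 CPM in progenitors and 739, 46.2 and 180 in others. The imprinted RNA H19 was at 105, 665 and 221 CPM in progenitors and 213, 951 and 163 in others.

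**Figure D5:**
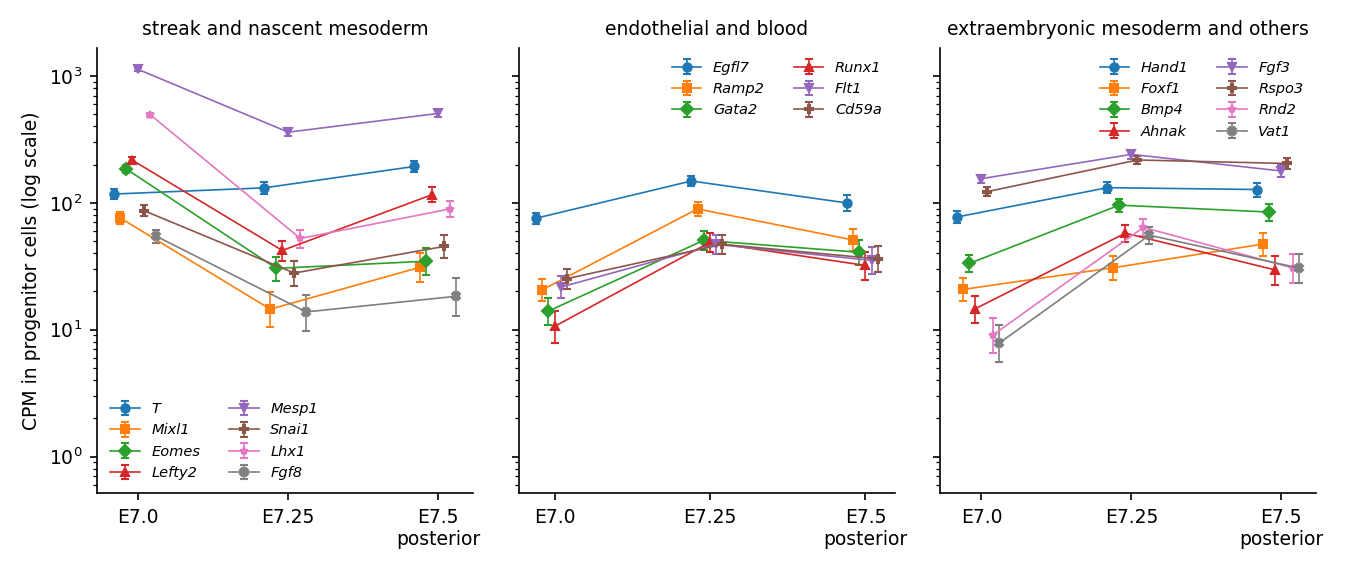
CPM (log scale) of streak and nascent mesoderm genes, endothelial and blood genes, and extraembryonic mesoderm and other genes in progenitors of the 3 libraries, with exact Poisson 95% intervals. Mixl1, Eomes and Lhx1 are highest at E7.0, and Ramp2, Egfl7 and Runx1 are highest at E7.25.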

How the data were processed

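Cells of 3 droplet libraries were analysed from the deposited filtered matrices, which hold raw UMI counts per gene and barcode and were made with Cell Ranger 6.0.1, per the file headers. The genome build is not given in the sources used here. Of 32285 gene IDs, 32158 were found in GENCODE M21.

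Barcodes with at least 1000 detected genes and at most 10% mitochondrial UMIs were kept, which left 7941, 5194 and 8438 cells. Counts were summed over groups of cells and scaled to CPM (UMIs of a gene per 1000000 UMIs of the group) with Python 3.11.15, numpy 2.4.6, scipy 1.17.1 and pandas 2.3.3. Poisson, Clopper-Pearson and conditional binomial 95% intervals cover counting error only, and PCR or cell-to-cell error is not included. No statistical test was run, because each group is 1 library. Ratios were counted past 2-fold among genes at 30 CPM or more on either side, and a side with 0 UMIs was set to 3. The intervals and counts were checked on simulated counts. Predicted doublets (Scrublet in scanpy 1.11.5, or the highest scores where its automatic limit marked none) were kept, and removed as an alternative.

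The progenitors, the 22 gene lists and the splits were chosen with earlier results of these data known. Besides rule and list genes, the text names genes at 50 CPM or more by rank: the 15 highest and 10 lowest over other cells by their weakest ratio in 3 libraries, and the 10 highest and 10 lowest between libraries. The ranking skipped predicted genes (Gm, Rik), mitochondrial and ribosomal protein genes, Xist and Tsix, and genes of the Y chromosome. The same ranking over progenitors with and without Tal1 was added after the data were seen. Some listed or ranked genes are not reported here. Alternatives covered the rule, the filters, the scaling, doublets, depth and the gates.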

Additional observations from a re-analysis of the deposited data

How the results depend on the processing

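Of 308 recomputed values, 209 moved by less than the limits used and 99 by more. The limits were counts within 1.5 times, and shares and medians within their spread. No list median of 2-fold or more in the main result changed sign, but smaller medians of streak genes did, as given below. Shares of progenitors (E7.0, E7.25, E7.5 posterior) were 8.40%, 7.39% and 4.28% with 2 rule genes, 0.579%, 1.85% and 0.711% with 4, 0.869%, 2.21% and 0.889% without Kdr in the rule, 1.51%, 2.43% and 1.01% with 2 UMIs of Etv2 or Tal1, and 0.628%, 1.66% and 0.718% at 5000 UMIs. E7.25 was highest in each of these except with 2 rule genes, where E7.0 was.

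Counts over other cells were, at 10 CPM, 98, 102 and 167 higher and 267, 276 and 242 lower. At 100 CPM they were 11, 10 and 14 higher and 34, 34 and 20 lower. With 4 rule genes, 72, 58 and 117 were higher. Per-cell means gave 73 higher at E7.25, and at most 5% mitochondrial UMIs gave 51 lower there. Between libraries, 10 CPM gave 396 higher and 208 lower at E7.25, then 210 and 250 at E7.5 posterior, and 100 CPM gave 39, 42, 23 and 23.

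Medians of lists (log2) over other cells moved as follows. With 4 rule genes, streak genes were at 0.13, -0.12 and -0.61, the last 2 of opposite sign to the main values, endothelial genes at 1.64 and 2.14 at the later stages, and visceral endoderm genes at -4.29 at E7.0. Between libraries the same rule gave 0.67 for endothelial and 2.59 for visceral endoderm genes at E7.25, and 0.21 for streak genes at E7.5 posterior. At 10 CPM the E7.25 medians were 2.06 for endothelial and -0.11 for streak genes, and 1.98 for visceral endoderm genes over E7.0. At 100 CPM they were 0.40 and 0.49, with 0.97 for streak genes at E7.5 posterior and -1.14 for streak genes at E7.25 over E7.0. Visceral endoderm genes were at -2.72, -1.35 and -2.24 with at most 5% mitochondrial UMIs, at -4.14 at E7.0 and 3.03 for E7.25 over E7.0 without doublets, and at -3.84 and -3.21 at E7.0 and E7.25 by per-cell means, which gave 1.72 for endothelial genes at E7.25.

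Alternatives added after seeing the data changed E7.25 most. Without cells over 2 times the median UMIs, shares were 2.12% and 2.87% at E7.0 and E7.25. At E7.25, 97 genes were higher and 186 lower than in other cells and 224 higher than at E7.0, with medians of 2.01 for endothelial, -0.021 for streak and -4.62 for visceral endoderm genes over other cells, and 1.51 and 0.84 for endothelial and visceral endoderm genes over E7.0. Visceral endoderm genes were at -4.43 over other cells at E7.0 and -2.35 for E7.5 posterior over E7.25. Without progenitors in the visceral endoderm gate they were at 1.20 and -2.37 between successive libraries. Progenitors with Tal1 gave 0.53 for endothelial, -0.43 for streak, 0.90 for extraembryonic mesoderm and 2.63 for visceral endoderm genes at E7.25 over E7.0, and 0.016 for streak genes at E7.5 posterior. The cause of these shifts was not tested.

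Blood shares among progenitors were 13.8%, 44.7% and 19.01% with 1 gene of the list, 0.446% and 5.32% at E7.0 and E7.25 with 3 genes, and 0% and 7.53% there at 5000 UMIs. Endothelial shares were 33.9%, 73.4% and 42.3%, then 2.68%, 14.4% and 10.6%, and 3.14%, 17.2% and 9.42% in the same settings. No paired analysis was possible because each group is 1 library, and leaving out a replicate was not possible for the same reason. Minimum gene counts of 500 and 2000, run for the 3 shares, and median-of-ratios scaling, run for 29 values, moved none of those past the limits. Depth limits the rare genes: Cdh5, Tie1 and Esam rest on 1 to 20 cells a library.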
